A study of Mus musculus with 16 samples.

Results

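The 10 genes described here encode the core enzymes of mitochondrial fatty acid beta-oxidation: Acadvl, Acadl, Acadm, Acads, Hadha, Hadhb, Hadh, Echs1, Acaa2 and Decr1. They were chosen by gene symbol, with earlier results of these data known. They are 10 of the 25803 genes in the deposited count tables and 10 of the 14488 genes with enough counts to test. The data are bulk RNA sequencing of liver, 16 libraries in 4 groups of 4, from males kept on a high-fat diet (HFD) for 12 weeks. One genotype is labelled Control and the other CPT1a LKO, a loss of Cpt1a in the liver, and the study's title ties that loss to lower plasma cholesterol. Mice were either fasted for 16 h or fasted for 16 h and then refed for 6 h, so the groups are fasted control (libraries S40 to S43), fasted LKO (S44 to S47), refed control (S48 to S51) and refed LKO (S52 to S55). All groups share the sex, the diet and the preceding fast. The age of the mice, the promoter or vector used for the deletion and the alleles of the controls are not given in the sources used here. The labels do not say that the libraries of a group are separate animals, so p-values measure the spread between these libraries.

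Beta-oxidation shortens a fatty acyl-CoA in the mitochondrial matrix by repeating a cycle of dehydrogenation, hydration, a further dehydrogenation and thiolytic cleavage, which yields acetyl-CoA. Long-chain fatty acids reach this cycle as acylcarnitines, and CPT1A, the product of the gene targeted in the LKO liver, makes them. In the liver the pathway is most active in fasting, when it feeds ketone body synthesis, and many of its genes are known targets of the nuclear receptor PPARA.

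The library totals ran from 14721601 to 24618230 counts, and each of the 10 genes had between 3257 and 35780 counts in every library. Levels are given as CPM, counts in each M (mega) counts of the library after TMM scaling, and a gene is called changed at an adjusted p under 0.05 in the quasi-likelihood test of edgeR, with p adjusted by Benjamini-Hochberg over all genes tested. Cpt1a itself lay between 86.1 and 126 CPM in fasted LKO against 378 to 556 CPM in fasted control, and between 39.9 and 75.2 CPM in refed LKO against 319 to 619.7 CPM in refed control, without overlap, as the labels say. Hepatocyte markers summed to 58037 to 66707 CPM in fasted LKO and 70261 to 77392 CPM in fasted control, with 1 of the 8 markers (Ttr) called lower, and to 59062 to 72623 CPM against 66796 to 89379 CPM after refeeding, with 0 of 8 called. Alb made up most of these sums, at means of 39508 CPM in fasted LKO and 48203 CPM in fasted control. Apoa1 alone of the 8 had the higher mean in LKO, at 14275 against 11046 CPM fasted and 13233 against 8936 CPM refed. Skeletal or cardiac muscle markers summed to at most 0.433 CPM and kidney tubule markers to at most 0.136 CPM in any library. Of 5 adipocyte markers only Cfd could be tested, at 9.75 to 58.1 CPM in fasted control, 0.336 to 9.51 in fasted LKO, 2.34 to 32.9 in refed control and 0.520 to 3.28 in refed LKO, and it was called lower in fasted LKO. The other 4 (Adipoq, Plin1, Lep and Retn) were at most 0.497 CPM in any library. The 3 lymphocyte markers summed to 2.59 to 4.72 CPM in fasted control and 10.5 to 30.2 CPM in fasted LKO, and to 1.95 to 3.64 CPM in refed control and 14.3 to 34.9 CPM in refed LKO. Of these Jchain alone was called, higher in both states (1.78 ± 0.979 against 18.4 ± 8.93 CPM fasted, SD, n = 4), whereas Cd3e and Cd79a were not. In fasted LKO livers 1 of 4 stellate cell markers (Dcn) was called higher and 1 of 3 red blood cell markers (Alas2) lower, and 0 of the 7 Kupffer cell and endothelial markers were called in either state. These marker counts stand beside 5.75% of all genes tested called higher and 6.48% lower in fasted LKO, and 2.28% and 1.35% after refeeding. As counts, single calls in such short lists cannot be told from those shares. The Jchain difference itself was large and came without overlap in both states. It was at most 3.15 CPM in fasted control and at least 7.89 CPM in fasted LKO. After refeeding it was at most 2.23 CPM in control and at least 12.3 CPM in LKO. The part of these other cells in the results was not tested, and in whole liver a change in the number of cells of a type and a change in RNA per cell cannot be told apart.

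The stretches upstream of 8 of the 10 genes were found in the RefSeq promoter table (GRCm38.p6). Those printed here are the interval shared by Hadha and Hadhb and the promoters of Acadm and Acadl, which rose in LKO livers, and of Acads and Hadh, which were not called, so that both behaviours can be set beside their sequence. They run 5′ to 3′ on the gene's own strand and stop before annotated exons. Capitals mark a match, on either strand, to one of the motifs searched.
Hadha-Hadhb interval, read towards Hadhb (chr5:30155163-30155247, plus strand): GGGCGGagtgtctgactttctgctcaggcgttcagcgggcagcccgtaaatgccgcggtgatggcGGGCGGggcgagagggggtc
Acadm (chr3:153944644-153944893, minus strand): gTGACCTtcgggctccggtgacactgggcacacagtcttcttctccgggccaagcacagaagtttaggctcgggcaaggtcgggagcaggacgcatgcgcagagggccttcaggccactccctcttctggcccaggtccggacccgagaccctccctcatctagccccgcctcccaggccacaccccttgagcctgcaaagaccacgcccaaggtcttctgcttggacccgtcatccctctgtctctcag
Acadl (chr1:66863310-66863559, minus strand): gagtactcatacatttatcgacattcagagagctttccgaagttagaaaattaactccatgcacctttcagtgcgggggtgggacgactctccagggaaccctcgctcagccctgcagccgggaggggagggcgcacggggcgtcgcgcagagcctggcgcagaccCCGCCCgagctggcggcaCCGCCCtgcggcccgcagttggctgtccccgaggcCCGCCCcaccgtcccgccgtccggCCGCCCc
Acads (chr5:115119347-115119596, minus strand): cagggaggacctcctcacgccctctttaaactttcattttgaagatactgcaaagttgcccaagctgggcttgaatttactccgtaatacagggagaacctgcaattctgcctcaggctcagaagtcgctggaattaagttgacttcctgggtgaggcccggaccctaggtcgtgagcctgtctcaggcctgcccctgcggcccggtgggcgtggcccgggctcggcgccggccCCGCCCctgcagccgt
Hadh (chr3:131272102-131272351, minus strand): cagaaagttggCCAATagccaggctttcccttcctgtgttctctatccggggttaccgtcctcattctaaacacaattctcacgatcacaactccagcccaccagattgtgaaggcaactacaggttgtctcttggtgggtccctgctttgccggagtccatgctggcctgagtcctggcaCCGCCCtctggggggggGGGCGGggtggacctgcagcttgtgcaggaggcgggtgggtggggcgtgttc

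The motifs were searched on both strands of the window from 250 bases before to 50 bases after each annotated start, and each share below is over the same window of all 32851 promoters in the table. AGGTCA, the core to which many nuclear receptors bind, occurred in 3 of the 8 promoters (Acadm, Acadvl and Echs1) and in 16.3% of all promoters. In Acadm it lies on the opposite strand, 249 to 244 bases before the start, as the first capitals of the printed sequence. The DR1 element, a direct repeat of that core with 1 base between, which PPARA binds with its partner RXR, occurred in 0 of the 8 and 0.0396% of all, and a relaxed DR1 with any base at the fourth position of each core in 0 of the 8 and 0.381%. TCAAGGTCA, the site of estrogen-related receptors, occurred in 0 of the 8 and 0.423%, and the palindromic site of NRF1 in 0 of the 8 and 0.971%. The GC box GGGCGG occurred in 6 of the 8 (Acadl, Acads, Echs1, Hadh, Hadha and Hadhb) and 35.7% of all promoters, and it stands 4 times in the printed Acadl sequence. The only match of Hadha is also a match of Hadhb, since the same bases, which open the printed interval, lie in both windows. CCAAT was found in Hadh alone among the 8, beside 37.4% of all promoters, TATAAA in 0 of the 8 and 13.6%, and CACGTG in 0 of the 8 and 7.15%. AGGTCA is contained in the DR1 element and in TCAAGGTCA. The genes with a GC box include both called and uncalled members, as do those with AGGTCA. A missing match says only that these letters are not in this window.

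The mRNA of several of these enzymes rose in LKO livers. In fasted livers 6 of the 10 genes were higher in LKO than in control and none was lower, against a background of 5.75% higher and 6.48% lower among all genes tested (12.2% in all). After refeeding 5 of the 10 were higher and none lower, where 2.28% of all genes were called higher and 1.35% lower (3.63% in all). The median log2 fold change of the 10 was 0.47 fasted and 0.38 refed, beside medians over all genes tested of 0.02 and -0.01. The genes called in both states were those for the long- and medium-chain dehydrogenases, both subunits of the trifunctional protein and the dienoyl-CoA reductase. Acadvl, for the very-long-chain dehydrogenase, was called in fasted livers only. Acads, Hadh, Echs1 and Acaa2, which serve the later and shorter-chain rounds of the cycle, were not called in either state. Called or not, 7 of the 10 had a log2 fold change above 0 fasted and 9 refed. In all, the 10 genes took 0.458% ± 0.0191 of all counts in fasted control and 0.597% ± 0.0299 in fasted LKO, then 0.442% ± 0.0158 (refed control) and 0.580% ± 0.0343 (refed LKO), each as mean and SD, n = 4. No fasted LKO library, the lowest at 0.568%, came down to the highest fasted control library at 0.482%, and refed LKO, from 0.533%, likewise stayed above refed control, up to 0.463%.

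**Figure D1:**
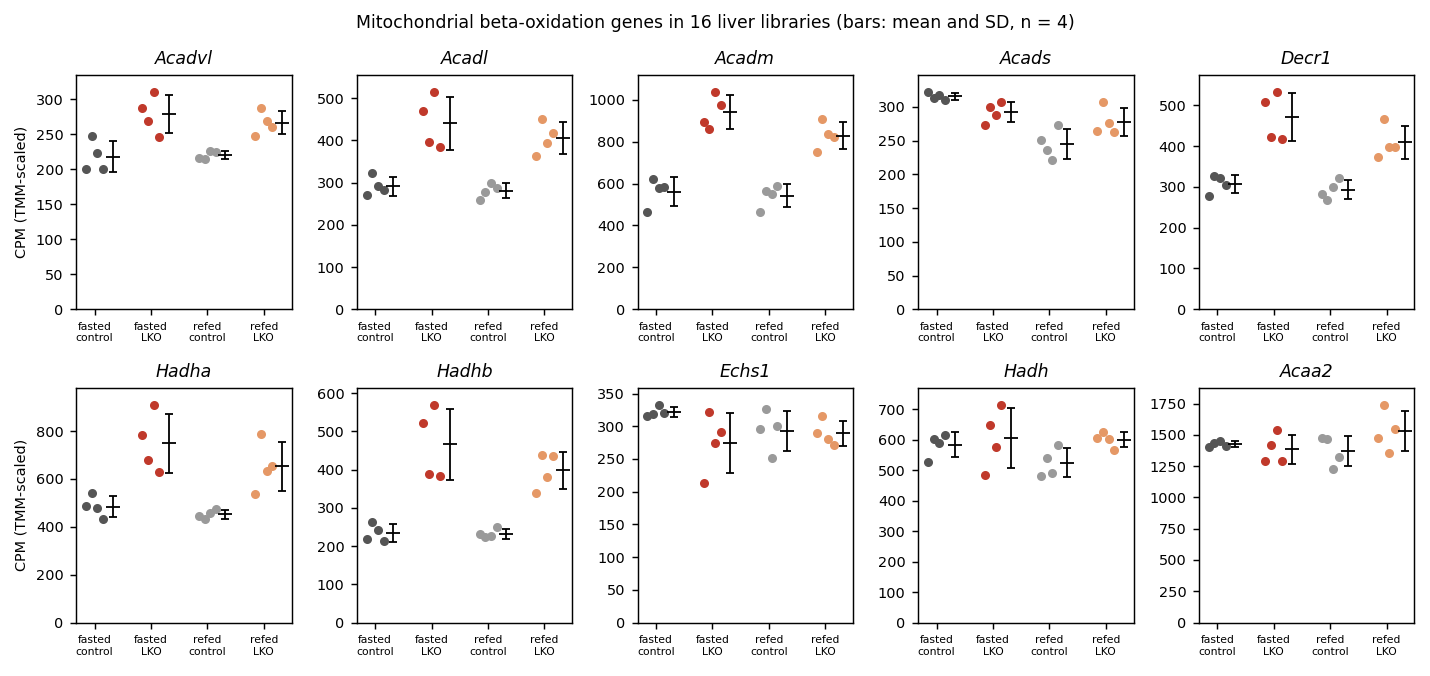
Level of each of the 10 genes in CPM (linear axes from 0) in the 16 libraries, by group; points are libraries and bars the mean and SD of 4. Hadhb, Acadm, Hadha, Decr1 and Acadl lie higher in both LKO groups with no overlap, whereas the groups of Acaa2, Hadh and Echs1 overlap.

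The cycle opens with the acyl-CoA dehydrogenases, a family split by chain length. Acadvl (chr11:69901009-69906237 in the deposited coordinates, mm39, minus strand) encodes the very-long-chain enzyme of the inner membrane. It stood at 201, 247, 223 and 201 CPM in fasted control and 287, 269.6, 311 and 247 CPM in fasted LKO. The lowest LKO library lay just under the highest control library, so the groups overlapped at one end. The log2 fold change was 0.35 (SE 0.09, fold 1.28, 95% interval 1.12 to 1.45, adjusted p = 0.0164). That call was lost without S40 (adjusted p = 0.0545), S43 (0.0548) or S46 (0.0570), and when only the 2 groups compared were fitted (0.0709). After refeeding Acadvl was at 216, 214, 226 and 225 CPM in control and 248, 287, 269.8 and 261 CPM in LKO, with no overlap, but the log2 fold change of 0.27 (SE 0.09) missed the threshold (adjusted p = 0.0956). DESeq2 called it (adjusted p = 0.0392), and the authors' deposited table gives a log2 fold change of 0.28 with an adjusted p of 0.00878.

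Acadl (chr1:66869998-66902436, minus strand), the long-chain dehydrogenase, stood at 269.6, 322, 292 and 282 CPM in fasted control and 469, 395, 515 and 383 CPM in fasted LKO. All LKO libraries lay above all controls, by a log2 fold change of 0.60 (SE 0.10, fold 1.51, 95% interval 1.30 to 1.76, adjusted p = 0.00172). In refed livers it was at 258, 279, 299 and 287 CPM in control and 362, 449.6, 393 and 417 CPM in LKO. The groups again did not overlap, with a log2 fold change of 0.53 (SE 0.10, adjusted p = 0.00985).

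Acadm (chr3:153627994-153650269, minus strand) encodes the medium-chain dehydrogenase, the enzyme missing in the commonest inherited defect of this pathway. It stood at 462, 619, 579.8 and 581 CPM in fasted control and 893, 858, 1037 and 972 CPM in fasted LKO. The lowest LKO library exceeded the highest control, and the log2 fold change was 0.75 (SE 0.11, fold 1.68, 95% interval 1.44 to 1.96, adjusted p = 4.8e-04). Refed control libraries held 466, 566, 550.0 and 587 CPM and refed LKO libraries 752, 906, 837 and 821 CPM. That difference, again without overlap, came to a log2 fold change of 0.61 (SE 0.11, fold 1.53, adjusted p = 0.0048).

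Acads (chr5:115248358-115257405, minus strand), the short-chain dehydrogenase, behaved otherwise. It stood at 322, 313, 318 and 309.8 CPM in fasted control and 273, 299.9, 288 and 307 CPM in fasted LKO. Here every LKO library was lower than every control library, although the log2 fold change of -0.11 (SE 0.08, 95% interval -0.28 to 0.06) was not called (adjusted p = 0.404). Over all genes tested, 8.57% had all fasted LKO libraries below all fasted controls and 8.3% had all of them above. In refed livers Acads was at 250.3, 235, 221 and 272 CPM in control and 264, 308, 275 and 262 CPM in LKO, which overlap, with a log2 fold change of 0.18 (95% interval 0.01 to 0.35, adjusted p = 0.233). With Acads as the lower one, 6 of the 10 genes did not overlap between the fasted genotypes, 5 of them higher in LKO. After refeeding 6 of the 10 did not overlap, all higher in LKO, where 6.7% of all genes tested were higher and 5.03% lower without overlap.

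The trifunctional protein of the inner membrane takes over after the long-chain dehydrogenases. Its alpha subunit, Hadha (ENSMUSG00000025745, chr5:30323302-30360160, minus strand), carries the hydratase and hydroxyacyl-CoA dehydrogenase, and its beta subunit, Hadhb (ENSMUSG00000059447, chr5:30360246-30389591, plus strand), the thiolase. In the deposited coordinates 85 bases separate these genes, which point away from each other across the interval printed above. Hadhb stood at 218, 263, 242 and 214 CPM in fasted control and 522, 389, 568 and 383 CPM in fasted LKO. The lowest LKO library was well above the highest control, although the LKO libraries split into a higher pair (S44 and S46) and a lower pair. The log2 fold change of 0.99 (SE 0.13, fold 1.99, 95% interval 1.65 to 2.40, adjusted p = 2.96e-04) was the highest of the 10. Refed livers held 231, 223, 225 and 250.5 CPM of Hadhb in control and 337, 438, 379.9 and 435 CPM in LKO. The groups did not overlap, and the log2 fold change was 0.78 (SE 0.13, fold 1.71, adjusted p = 0.00376).

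Hadha stood at 487, 539.8, 478 and 431 CPM in fasted control and 783, 679, 908 and 627 CPM in fasted LKO. S44 and S46 were again the higher LKO libraries, and no LKO library fell into the control range. The log2 fold change was 0.63 (SE 0.12, fold 1.55, 95% interval 1.29 to 1.86, adjusted p = 0.00387). After refeeding Hadha was at 444, 432, 458 and 475 CPM in control and 538, 787, 632 and 654 CPM in LKO. The groups did not overlap, with a log2 fold change of 0.53 (SE 0.12, adjusted p = 0.0280). This call was lost without S48 (adjusted p = 0.0804), S49 (0.0629), S50 (0.0604), S53 (0.0893), S54 (0.0549) or S55 (0.0715).

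The subunit genes were also compared with each other. The ratio of Hadhb to Hadha counts, which does not depend on library scaling, was 0.447, 0.487, 0.505 and 0.497 in fasted control and 0.667, 0.573, 0.626 and 0.610 in fasted LKO. It was 0.520, 0.515, 0.492 and 0.527 in refed control and 0.627, 0.557, 0.601 and 0.664 in refed LKO. In both states every LKO library was above every control library, by 0.36 on the log2 scale fasted and 0.25 refed. Each gave p = 0.0286 in an exact two-sided permutation test, the smallest that 4 against 4 libraries can give. After Benjamini-Hochberg adjustment over the 4 tests of this ratio each was 0.0571, which does not pass 0.05. With only these genotype tests at the smallest p, no lower adjusted value was possible, so it does not measure the size of the difference. Refeeding moved the ratio by 0.09 in control (exact permutation p = 0.0857, adjusted 0.114) and by -0.02 in LKO (exact permutation p = 0.743, adjusted 0.743), with overlapping groups.

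**Figure D2:**
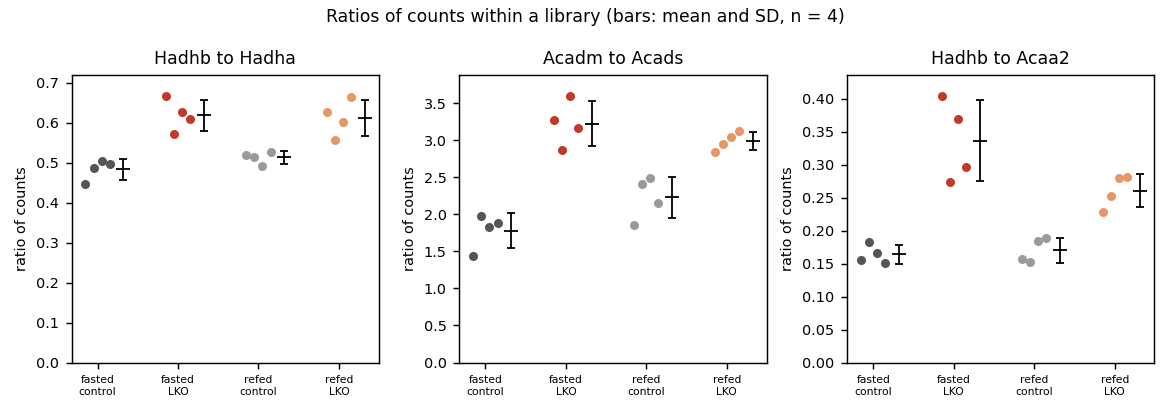
Ratio of counts of a pair of genes in each library (linear axes from 0), by group; points are libraries, bars the mean and SD of 4. The Hadhb to Hadha ratio averages 0.484 and 0.514 in the control groups and 0.619 and 0.612 in the LKO groups, and in all of the pairs drawn (Hadhb to Hadha, Acadm to Acads, Hadhb to Acaa2) the LKO libraries lie above the control libraries of the same feeding state.

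The soluble matrix enzymes complete the shorter-chain rounds. Echs1 (chr7:139685623-139696389, minus strand), the short-chain enoyl-CoA hydratase, stood at 315, 318, 332 and 319.5 CPM in fasted control and 213, 321, 274 and 291 CPM in fasted LKO. The LKO libraries spread more widely than the controls and overlapped them, with a log2 fold change of -0.23 (SE 0.11, 95% interval -0.46 to 0.01, adjusted p = 0.200). Refed libraries of both genotypes lay between 252 and 326 CPM (log2 fold change -0.02, 95% interval -0.25 to 0.21, adjusted p = 0.954). Echs1 overlaps Paox on the opposite strand, at a mean of 21.4 CPM, and whether counting used strand is not given in the sources used here. Acadvl likewise overlaps Dvl2, at a mean of 7.33 CPM.

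Hadh (chr3:131027068-131065750, minus strand), the short- and medium-chain hydroxyacyl-CoA dehydrogenase, stood at 527, 602, 591 and 617 CPM in fasted control and 484, 649, 576 and 714 CPM in fasted LKO. The LKO libraries lay on both sides of the controls, and the log2 fold change was 0.05 (95% interval -0.18 to 0.28, adjusted p = 0.814). After refeeding it was at 481, 542, 490.2 and 584 CPM in control and 605, 625, 603 and 566 CPM in LKO. These groups overlapped through S51 and S55, with a log2 fold change of 0.19 (95% interval -0.03 to 0.42, adjusted p = 0.360).

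Acaa2 (chr18:74912268-74939279, plus strand), the matrix thiolase, had the highest counts of the 10. It stood at 1405, 1438, 1453 and 1412 CPM in fasted control and 1292, 1419, 1536 and 1289 CPM in fasted LKO, and at 1474, 1467, 1227 and 1324 CPM in refed control and 1475, 1737, 1357 and 1549.8 CPM in refed LKO. The genotypes overlapped in both states. The log2 fold changes were -0.04 (95% interval -0.24 to 0.16, adjusted p = 0.816) fasted and 0.16 (-0.04 to 0.36, adjusted p = 0.401) refed. The upper ends of these intervals lie below the estimates for Hadhb, Acadm, Hadha, Acadl and Decr1 in the same state. In refed livers, however, the Acaa2 interval overlaps those of Hadha (from 0.27), Decr1 (from 0.27) and Acadl (from 0.31). A difference between genes was not tested.

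Decr1 (chr4:15917240-15945507, minus strand), the dienoyl-CoA reductase that lets unsaturated fatty acids enter the cycle, stood at 277, 326, 322 and 304 CPM in fasted control and 509, 423, 533 and 418 CPM in fasted LKO. All LKO libraries were higher, by a log2 fold change of 0.61 (SE 0.10, fold 1.53, 95% interval 1.32 to 1.78, adjusted p = 0.00134). In refed livers it was at 282, 269, 299 and 322 CPM in control and 374, 466, 397 and 399 CPM in LKO. The log2 fold change of 0.48 (SE 0.10, adjusted p = 0.0164) came without overlap, and the call was lost without S48 (adjusted p = 0.0585) or S53 (0.0528). Without either of those libraries the number of the 10 called after refeeding was 3 in place of 5. Hadhb, Acadm and Acadl were called in both states under each of the 23 other settings and left-out libraries that were run.

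**Figure D3:**
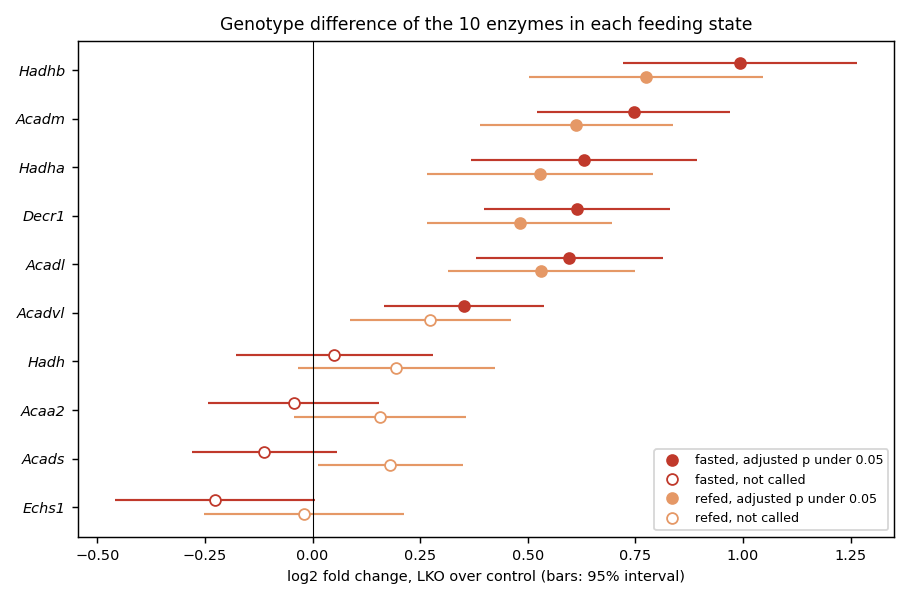
Log2 fold change of LKO over control for each gene (x axis), fasted and refed, with 95% intervals as bars; filled points have an adjusted p under 0.05. Hadhb is farthest right in both states at 0.99 and 0.78, the intervals of Hadh, Acaa2 and Echs1 include 0 in both, and that of Acads includes 0 fasted and runs from 0.01 to 0.35 refed.

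Refeeding for 6 h was compared with the fast within each genotype. In control livers Acads fell and was the only one of the 10 called, against a background of 7.65% lower and 7.79% higher among all genes tested (15.4% in all). As a count, 1 of the 10 lower is near the share of all genes called lower. Acads went from 315.5 ± 5.46 CPM fasted to 244.8 ± 21.9 CPM refed (SD, n = 4) without overlap, a log2 fold change of -0.37 (SE 0.08, fold 0.776, adjusted p = 0.00674). Acads was also the only one of the 10 whose control groups did not overlap, beside 10.1% of all genes tested that were lower and 10.4% higher without overlap. That count too is near the share of all genes. The authors' deposited table gives -0.37 with an adjusted p of 4.1e-04. The other 9 had log2 fold changes from -0.16 to 0.01. In LKO livers refeeding left 0 of the 10 called by edgeR, where 8.78% of all genes were called lower and 9.28% higher (18.1% in all). The fasted and refed LKO libraries overlapped for each of the 10 genes, beside 9.95% of all genes tested that were lower and 10.6% higher without overlap. The count of calls was also 0 at an unadjusted p under 0.05, and 0 by DESeq2 and by limma-voom. The log2 fold changes in LKO ran from -0.23 for Hadhb to 0.14 for Acaa2, and Acads was at -0.07 (adjusted p = 0.573). The genotype effect differed between the feeding states for 0 of the 10 in edgeR's test of the interaction, where 0.311% of all genes tested were called for a higher effect in refed livers and 0.228% for a lower one (0.538% in all). DESeq2 and limma-voom called 0, and 1 of the 10 reached an unadjusted p under 0.05. That gene, Acads, had an interaction of 0.29 on the log2 scale (SE 0.11, adjusted p = 0.200 by edgeR), so its fall in control livers and its smaller difference in LKO livers are not shown to differ.

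Other pairs that do similar chemistry were compared within a library. These pairs were picked after their values were seen and are given without a test. The ratio of Acadm to Acads counts was 1.78 ± 0.239 in fasted control and 3.22 ± 0.304 in fasted LKO, then 2.23 ± 0.281 (refed control) and 2.99 ± 0.123 (refed LKO), with SD and n = 4. The thiolase of the trifunctional protein against that of the matrix, Hadhb to Acaa2, went from 0.164 ± 0.0141 to 0.336 ± 0.0609 fasted and from 0.170 ± 0.0188 to 0.260 ± 0.0249 refed. In both pairs the genotypes did not overlap in either state. Hadha to Hadh, the long-chain against the shorter-chain hydroxyacyl-CoA dehydrogenase, averaged 0.832 and 1.28 fasted and 0.867 and 1.09 refed, with overlap in both states.

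Levels between genes were compared as counts per kb and M of library (RPKM), as means over the 16 libraries. With the deposited gene lengths the order was Acaa2 (942), Acadm (183), Acadl (177), Acads (124), Hadh (116), Decr1 (95.4), Acadvl (91.6), Hadha (67.0), Hadhb (50.4) and Echs1 (35.6). The order depends on the length used. Echs1 is 8286 bases long in the deposited tables and 1557 bases as the principal transcript in GENCODE M21, and with such transcript lengths it moved from last to the fourth place at 189 RPKM. Acaa2 has 1516 bases in both, and it exceeded Acadm, the second gene on either scale, in 16 of 16 libraries without overlap of their ranges. Every other pair of neighbours in the deposited-length order had overlapping ranges.

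Libraries of 1 group differed from each other in the same genes. The log2 CPM of each gene was taken as its deviation from the mean of its group, and Pearson's r was computed over the 16 libraries for each of the 45 pairs, as a description, since the genes share libraries and depth. The median r was 0.36 (-0.42 to 0.90), and 34 of the 45 were above 0, beside a median of 0 over all pairs of genes tested. In the gene lists read below the median r was 0.66 (peroxisomal beta-oxidation), 0.45 (carnitine entry), 0.45 (respiratory chain), 0.44 (ketogenesis), 0.22 (auxiliary and branch enzymes) and 0.18 (TCA cycle). It was -0.004 for electron transfer and -0.007 for the transcriptional regulators. Co-variation of this size was thus not particular to the 10 genes. The 6 genes called in fasted livers, a grouping made after their values were seen, had a median r of 0.84 (0.43 to 0.90 over 15 pairs), led by Hadha with Hadhb and Acadl with Hadhb at 0.90. The other 4 had a median of 0.55 (0.05 to 0.75 over 6 pairs), led by Hadh with Echs1. Across these groups the median was 0.01 (-0.42 to 0.47 over 24 pairs), with Hadhb and Hadh at -0.42. S44 shows the split, since it had the second highest Hadhb (522 CPM) of the fasted LKO libraries and their lowest Hadh (484 CPM) and Echs1 (213 CPM). Without S46 and S53, the libraries farthest from their group means, the medians were 0.76, 0.56 and -0.27, an alternative chosen after seeing the data.

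**Figure D4:**
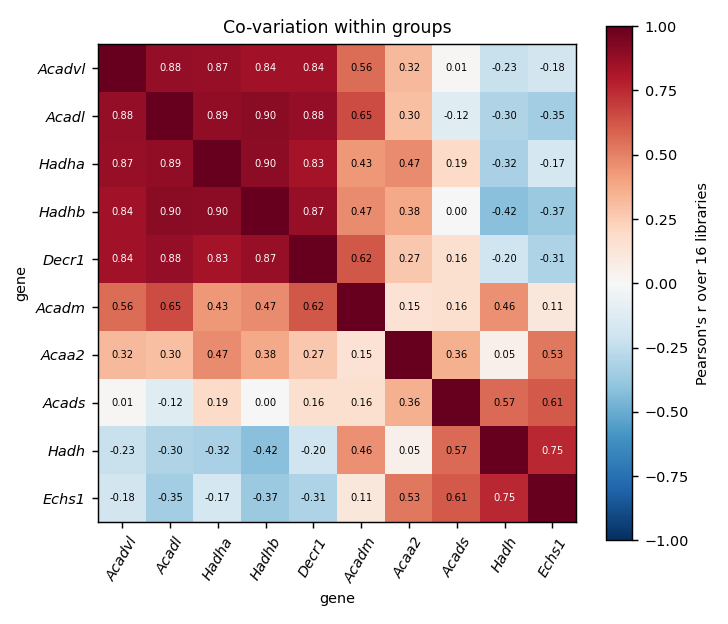
Pearson's r between genes (both axes, 10 genes) of deviations of log2 CPM from the group means over 16 libraries, from -1 (blue) to 1 (red). Acadvl, Acadl, Hadha, Hadhb and Decr1 form a red block with r of 0.83 to 0.90, and Hadh and Echs1 (0.75) stand apart from it.

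Among the other protein-coding genes with a mean of at least 5 CPM, the 8 most like the mean standardised profile of the 10 over the 16 libraries were Ech1 (r = 0.96), Aldh9a1 (0.94), Eci1 (0.94), Coasy (0.92), Acat1 (0.91), Blmh (0.91), Hsd17b4 (0.90) and Dlst (0.90). Ech1 and Eci1 encode isomerases for unsaturated acyl-CoAs, Acat1 the mitochondrial acetoacetyl-CoA thiolase and Hsd17b4 the peroxisomal multifunctional enzyme. Within groups, after group means were removed, their r ran from 0.55 for Blmh to 0.86 for Aldh9a1. The members' own r to that mean, which contains them, was 0.85 to 0.90 for the 6 called in fasted livers, 0.59 for Hadh, 0.50 for Acaa2, 0.49 for Acads and -0.05 for Echs1.

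Genes on either side of the cycle were read from lists, whose genotype comparisons use the same libraries as those above. The steps that bring fatty acids to the cycle as carnitine esters also rose in fasted LKO livers. Of 9 genes tested (10 listed, Cpt1b had too few counts) 7 were called higher and 1, Cpt1a, lower, beside 5.75% and 6.48% of all genes tested. The median log2 fold change was 0.73. The genes called higher include Slc22a5, the carnitine transporter (1.29, adjusted p = 0.0044), Crat, carnitine acetyltransferase (1.05, adjusted p = 2.3e-04), Slc25a20, the acylcarnitine carrier (0.51, adjusted p = 0.00247), and Cpt2, which returns acylcarnitine to acyl-CoA (0.36, adjusted p = 0.0132). The Cpt2 call was lost in the fit of only the 2 groups (adjusted p = 0.0654). After refeeding 0 of the 9 were called higher and Cpt1a was lower, with a median of 0.13. The count of higher genes moved in 7 of the 23 other settings, among them to 1 by DESeq2, by limma-voom and without S40, S45 or S46. In the refed comparison 2.28% of all genes tested were called higher and 1.35% lower. Refeeding itself lowered 8 of the 9 in LKO livers, Cpt1a among them, with a median of -0.89, beside 8.78% of all genes tested called lower. Of these Acsl5 (-0.30, adjusted p = 0.0477) kept its call in only 6 of the 23 other settings. In control livers refeeding lowered 1 of the 9 (Crot), with a median of -0.28, beside 7.65% of all genes tested. The Crot call held in 11 of the 23 other settings. In edgeR's test of the interaction 1 of the 9, Crat (-0.83, adjusted p = 0.0406), was called for a lower genotype effect in refed livers. The median was -0.47, and 0.228% of all genes tested were called lower. The Crat call held in 12 of the 22 other settings. A difference from the cycle enzymes was not tested.

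Electrons leave the acyl-CoA dehydrogenases through ETF and its dehydrogenase. Etfdh was higher in fasted LKO livers (log2 fold change 0.62, adjusted p = 0.00159), whereas Etfa (0.05, adjusted p = 0.752) and Etfb (0.08, adjusted p = 0.627) were not called, and after refeeding 0 of the 3 were called. Of 15 auxiliary and branch enzymes 3 were higher in fasted LKO (Acad11 at 0.70, Eci1 at 0.42 and Acat1 at 0.31) and 1 lower (Mcee at -0.30), with a median of 0.06. Of all genes tested 5.75% were called higher and 6.48% lower, and the 1 lower of 15 is near that share. The count of higher genes was 1, Acad11, without S42, S43 or S46, Acat1 was not called without S40, S45 or S47 either, and Mcee not without any one of S40, S41, S42, S43, S44 or S46. Acat1 and Mcee also lost their calls with no filter on low counts and in the fit of only the 2 groups compared. Over the 23 settings the adjusted p reached 0.0625 for Eci1, 0.117 for Acat1 and 0.111 for Mcee. After refeeding Eci1 (0.58, adjusted p = 0.00819) and Ech1 (0.37, adjusted p = 0.0366) of the 15 were higher, beside 2.28% of all genes tested, with a median of 0.12. Ech1 lost its call without any one of S42, S48, S50, S51, S53, S54 or S55 (adjusted p up to 0.115). It also lost it with no filter on low counts and in the fit of only the 2 groups compared.

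Ketone body synthesis uses the acetyl-CoA that the cycle yields. Bdh1, which makes 3-hydroxybutyrate, was higher in fasted LKO livers (log2 fold change 0.63, adjusted p = 0.00329) and after refeeding (0.84, adjusted p = 0.00116). The parallel pathway in peroxisomes had 6 of 10 genes higher and 0 lower in fasted LKO (5.75% and 6.48% of all genes tested), with a median of 0.58. It had 4 of 10 higher after refeeding (2.28% of all genes tested), with a median of 0.46. Ehhadh, its bifunctional enzyme, had log2 fold changes of 2.97 (adjusted p = 3.9e-04) fasted and 2.42 (adjusted p = 0.00376) refed. The refed peroxisomal count was 1 without S48, 2 without S49, S53 or S55, and 8 by DESeq2.

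**Figure D5:**
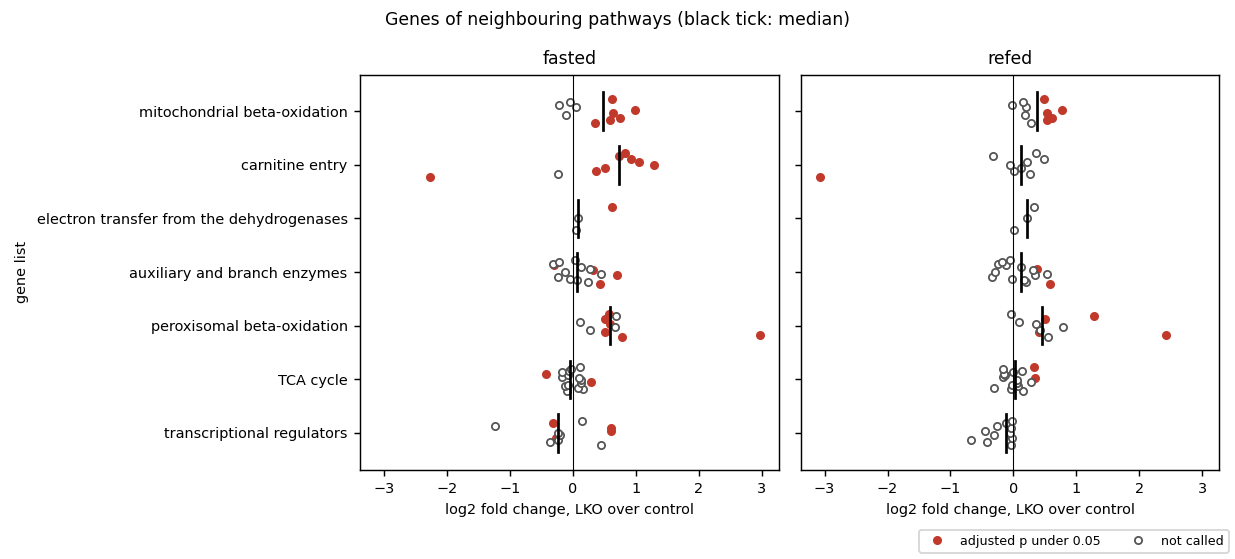
Log2 fold change of LKO over control (x axis) for each gene of the cycle and of 6 neighbouring lists (rows), fasted and refed; filled points have an adjusted p under 0.05 and black ticks are list medians. The medians of the cycle genes (0.47 and 0.38) and the peroxisomal genes (0.58 and 0.46) lie right of 0 in both panels, whereas that of the carnitine genes is 0.73 fasted and 0.13 refed.

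Transcripts of 11 known regulators were read in the same way. In fasted LKO livers 2 were higher and 2 lower, beside 5.75% and 6.48% of all genes tested. Nrip1 (0.61, adjusted p = 0.0176) and Ncor1 (0.60, adjusted p = 0.00209), both corepressors, were higher, and Esrra (-0.27, adjusted p = 0.0377), an estrogen-related receptor, and Sirt3 (-0.31, adjusted p = 0.0173), a mitochondrial deacetylase, were lower, with a median of -0.23. Ppara had a log2 fold change of 0.45 (adjusted p = 0.161) and Ppargc1a, its coactivator, of -0.37 (adjusted p = 0.434). Nrip1 was not called without S41, S42 or S44, Sirt3 without S44, and Esrra without any one of S40, S41, S43, S44, S46, S47 or S55, nor with upper-quartile scaling or no filter on low counts. Nrip1, Sirt3 and Esrra also lost their calls in the fit of only the 2 groups compared. Over all settings the adjusted p of Nrip1, Sirt3 and Esrra reached 0.0667, 0.0617 and 0.112. After refeeding 0 of the 11 were called, with a median of -0.12.

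Downstream of the cycle, the 16 TCA cycle genes had medians of -0.04 fasted and 0.02 refed. In fasted LKO 2 of the 16 were called, a share close to the 12.2% of all genes tested, and after refeeding 2 of the 16, beside 3.63%. Dlst (0.29, adjusted p = 0.0282) was higher and Sdhb (-0.43, adjusted p = 0.0209) lower in fasted LKO, and Suclg1 (0.35, adjusted p = 0.0434) and Mdh2 (0.33, adjusted p = 0.0348) higher after refeeding. Each of these 4 calls was lost on leaving out at least 1 library: Dlst without S40, S41, S43 or S46, Sdhb without S40 or S44, Suclg1 and Mdh2 without S42, S48, S50, S51, S53 or S55, Mdh2 also without S54 and Suclg1 also without S40, S41, S43 or S52. Dlst, Suclg1 and Mdh2 also lost their calls with no filter on low counts and in the fit of only the 2 groups compared. Over all settings the adjusted p reached 0.0948 for Dlst, 0.0701 for Sdhb, 0.130 for Suclg1 and 0.110 for Mdh2. The respiratory chain list held protein-coding genes with symbols starting Nduf (then a, b, c, s or v), Uqcr or Atp5, and chosen Cox genes. That rule also admits ATP synthase genes and Ndufaf assembly factors. Of its 82 genes 0 were higher and 11 lower in fasted LKO livers, beside 5.75% and 6.48% of all genes tested, with a median of -0.16. After refeeding 0 were called, with a median of 0.00. Leaving out a library gave 3 to 13 lower in fasted LKO, among them 3 without S40, 5 without S43, S44 or S46 and 6 without S42 or S47. DESeq2 gave 17.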

How the data were processed

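Poly-A RNA of liver was sequenced in 16 libraries, per the labels' protocols. Reads were aligned with HISAT2 2.0.5 and the build is mm39, per the submitters' processing notes. The counting tool, annotation, strand setting and comparison tool are not given in the sources used here. The authors deposited 4 tables, each comparing a pair of groups, with raw read counts per gene. The deposited tables also give the authors' log2 fold changes, adjusted p-values and gene lengths in bases. The tables hold 64 other columns with a value for each library, which were left unused. Columns S40 to S55 match no sample title, so each library took its group from the group headings of the tables that hold it, and no replicate number could be attached.

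Joining the tables by gene identifier gave 25803 genes. Counts of a library differed between tables for 0 genes, and 3148 low genes absent from both tables of a library were set to 0 there. Genes passing filterByExpr (14488) were scaled by TMM (factors 0.941 to 1.07) and fitted with edgeR 4.0.16 and limma 3.58.1 in R 4.3.3 (glmQLFit, 4 groups as 1 factor, biological coefficient of variation 0.185), and 5 contrasts were tested by glmQLFTest with Benjamini-Hochberg adjustment over all genes tested. The SE is the log2 fold change divided by the square root of F. Log2 CPM for co-variation used a prior count of 2. Alternatives were RLE and upper-quartile scaling, no filter, a mean of at least 5 CPM, DESeq2 1.42.0, limma-voom, fits of only the 2 groups compared, and each library left out. The fit was tested on simulated data.

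All 10 members, every gene of the lists and the 8 most alike genes could be named, and those of the lists given with values were picked after these were seen. Some genes of the lists are not reported here. The members and lists were chosen with earlier results of these data known. Promoters are those of RefSeq (GRCm38.p6), a build other than that of the deposited coordinates, and were trimmed with GENCODE M21 exons of the same build.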

Additional observations from a re-analysis of the deposited data

How the results depend on the processing

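Of 1140 recomputed values of the 10 genes, 1110 kept their direction and side of the threshold, 12 lost a call, 1 gained one (Acadvl refed, DESeq2) and 17 changed sign, none of them called before or after. Leaving out each library in turn gave 5 to 6 of the 10 called fasted, 3 to 5 refed, 1 in control refeeding and 0 in LKO refeeding and the interaction, and 3 refed without S48 or S53. The values that changed sign ranged, over left-out libraries, from -0.0384 to 0.145 for Hadh fasted, -0.0870 to 0.0352 for Echs1 refed, -0.0241 to 0.0802 for Acadvl, -0.131 to 0.0189 for Acadm and -0.0503 to 0.0510 for Hadhb in control refeeding, -0.108 to 0.0754 for Hadh and -0.0319 to 0.166 for Echs1 in LKO refeeding, and -0.125 to 0.0188 for Acadl and -0.203 to 0.00455 for Hadha in the interaction. The log2 ratio of Hadhb to Hadha in LKO refeeding ranged from -0.0572 to 0.0278. The median r across the called and uncalled genes was 0.01 with all libraries and -0.27 without S46 and S53; the cause was not tested. No paired analysis was possible because the count columns carry no replicate number. With 4 libraries a group, the 95% intervals given for Acads, Hadh, Echs1 and Acaa2 show how large a change stays possible where no call was made.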
